A study of Mus musculus with 24 samples.

Results

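The 10 genes described here encode enzymes that make, lengthen and desaturate fatty acids: Acly, Acaca and Fasn for synthesis, Scd1 and Scd2 for the first double bond, Elovl1, Elovl5 and Elovl6 for elongation, and Fads1 and Fads2 for polyunsaturated chains. They were taken by name, and all 10 were found among the 55359 gene rows of the table. The cells were oligodendrocytes from cortices of pups of the C57BL/6J strain, aged postnatal days 5 to 7, and were purified as immature cells on magnetic beads with an antibody to the surface antigen O4. After 3 days of differentiation, driven above all by the thyroid hormone triiodothyronine (T3), they spent 3 further days in medium with or without ethanol. Experiment 1 had 6 control wells (0 mM) and 6 wells at 30 mM ethanol, and experiment 2 had 6 control wells (0 mM) and 6 wells at 10 mM. Control plates stood in another incubator than the ethanol plates: an effect of ethanol and one of the incubator cannot be told apart, nor can dose and experiment, since each dose was used in 1 experiment. The labels call the wells biological replicates but name no separate animals or cultures for them, so p-values measure the spread between wells, which may be technical.

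Cytosolic citrate is split by ATP citrate lyase (Acly) into acetyl-CoA, acetyl-CoA carboxylase (Acaca) turns this into malonyl-CoA, and fatty acid synthase (Fasn) builds palmitate from both. Stearoyl-CoA desaturases place a double bond in saturated chains, elongases of the Elovl family start each cycle of chain lengthening, and the Fads1 and Fads2 desaturases act on essential polyunsaturated chains. Myelin is rich in long and very long chain lipids, and oligodendrocytes make much of this lipid themselves. Many of these genes are known targets of the SREBP transcription factors, which the protein Insig1 holds back.

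Total counts per well lay between 1184609 and 1817028, and the 10 genes had between 64 and 4596 counts in a well, far above 3 counts, taken as the floor and worth 1.65 to 2.53 CPM (counts scaled to the library size). Replicate 1 at 30 mM stood apart: its summed level of 12 myelin markers was 11680 CPM, against 6680 for the lowest and 6946 for the median well of its group and 5028 to 6080 in its controls. Ethanol wells and controls also differed in markers of other cells in experiment 1, where 11 mural and fibroblast markers summed to 492 to 604 CPM at 30 mM and 1098 to 1507 CPM in controls, and 10 astrocyte markers to 7477 to 9256 CPM and 5565 to 6815 CPM. At 10 mM the corresponding ranges were 6066 to 6246 CPM for myelin markers against 4818 to 6171 in controls, 614 to 702 CPM for mural and fibroblast markers against 634 to 811, and 6139 to 6975 CPM for astrocyte markers against 5976 to 6348. The 12 microglial markers summed to 231 to 401 CPM in experiment 1 and 2919 to 3765 CPM in experiment 2, and the endothelial marker Cldn5 was at 0 in every well of 3 of the 4 groups. Fewer cells of a type and less RNA per cell cannot be told apart in such wells, and the part of the other cell types in the results below was not tested.

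Scd1 and Scd2 have coding sequences that are alike over 90.4% of aligned bases, which matters because their levels are compared throughout. The stretch around the longest run they share, 147 bases, is shown for both from the GENCODE mouse transcripts, 5′ to 3′, with capitals at the 2 of 240 bases that differ. It covers coding bases 477 to 716 of Scd1 and 486 to 725 of Scd2.
Scd1: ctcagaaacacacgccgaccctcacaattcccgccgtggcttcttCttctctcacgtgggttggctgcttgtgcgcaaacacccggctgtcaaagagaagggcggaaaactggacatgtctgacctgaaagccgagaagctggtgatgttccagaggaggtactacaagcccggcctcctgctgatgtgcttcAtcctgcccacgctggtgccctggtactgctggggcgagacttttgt
Scd2: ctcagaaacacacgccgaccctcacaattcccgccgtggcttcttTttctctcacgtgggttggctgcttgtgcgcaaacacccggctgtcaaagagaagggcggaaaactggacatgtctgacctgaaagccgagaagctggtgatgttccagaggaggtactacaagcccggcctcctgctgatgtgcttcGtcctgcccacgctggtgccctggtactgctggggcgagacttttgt
Reads here came from near the 3′ end. In the last 500 bases of the same transcripts the longest shared run was 14 bases, and 0 of 401 possible 100-base reads from Scd1 also occurred in Scd2. The same held for each other pair compared among the desaturases (Scd1 to Scd4; Fads1 to Fads3) and among the elongases Elovl1, Elovl5 and Elovl6. Alternative transcript ends were not examined.

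A 3′ tag is counted about once per transcript, so CPM did not scale with transcript length and the genes could be ranked. Scd2, the main stearoyl-CoA desaturase of brain, stood far above the others at 2651 ± 197 CPM (SD, n = 6) in the controls of experiment 1 and 2136 ± 88.4 CPM (SD, n = 6) in those of experiment 2. It took 53.0% and 53.9% of the counts of the 10 genes. In the controls of experiment 1 the order went on with Fads1 (498 CPM), Fads2 (484 CPM) and Scd1 (463 CPM), whose wells overlapped from neighbour to neighbour. Elovl5 (258 CPM) and Fasn (238 CPM) overlapped as well and lay below Scd1 in every well, followed by Elovl1 (130.1 CPM), whose wells overlapped neither neighbour. Acly (108 CPM), Elovl6 (87.2 CPM) and Acaca (80.6 CPM) were lowest, again with overlapping neighbours. In the controls of experiment 2 Fads2 was above Fads1 without overlap, and Scd1 (249 CPM) was close to Fasn (213 CPM) and Elovl5 (197 CPM), with overlapping neighbours.

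**Figure D1:**
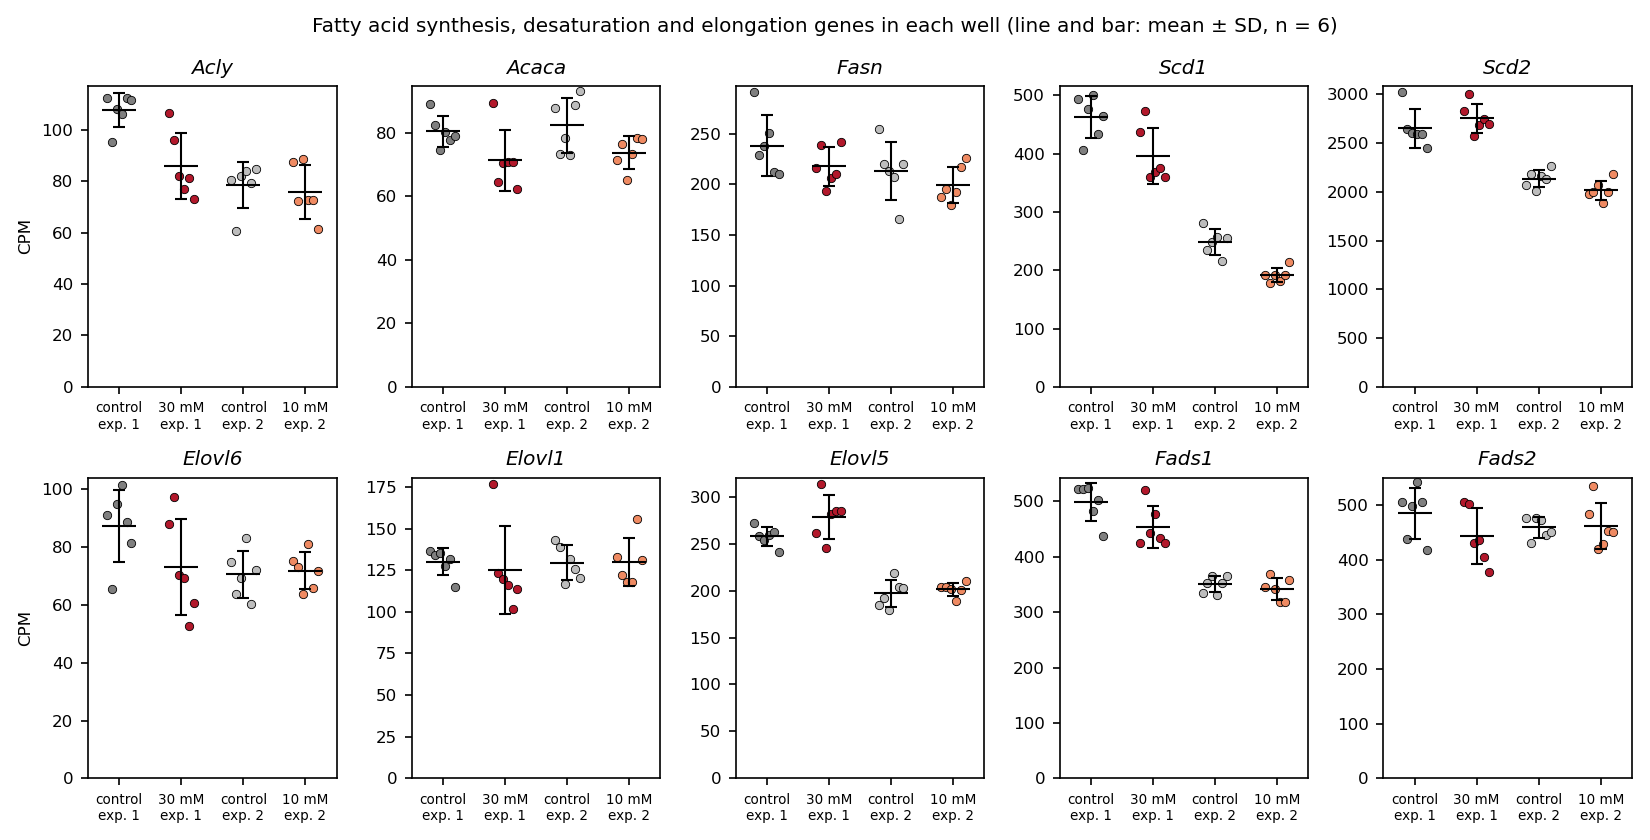
Level of each of the 10 genes (CPM, linear axis from 0) in every well of the 4 groups; points are wells, the line and bar are the mean and SD of 6 wells. Scd1 wells at 10 mM sit between 178 and 214 CPM, all below the controls of experiment 2 at 216 to 281 CPM.

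The first question was whether ethanol shifted transcripts of this pathway at either dose. At 30 mM, 2 of the 10 genes fell, Acly and Scd1, and 0 rose, by edgeR's quasi-likelihood test at an adjusted p under 0.05. Of all 13235 genes tested, 9.67% were called, 6.65% lower and 3.02% higher. The log2 fold change was below 0 for 8 of the 10 genes, as for 46% of all genes, with a median of -0.13 against 0.02. At 10 mM, 1 of the 10 genes fell, Scd1, and 0 rose, where 0.657% of 13538 genes were called, 0.266% lower and 0.391% higher. The log2 fold change was below 0 for 8 of 10 genes, as for 50.7% of all genes, with a median of -0.06 against 0.00 for all genes. At 30 mM 0 of the 10 genes had ethanol and control wells that did not overlap, as 4.56% of all genes had. At an unadjusted p under 0.05 the counts were 4 of 10 genes at 30 mM (23.5% of all genes) and 2 of 10 at 10 mM (10.1%).

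The 2 calls at 30 mM were not stable. With the log2 total count per well as a covariate, an alternative chosen after seeing the data, 0 of 10 genes were called. Totals also differed by group, with a median of 1297030.5 at 30 mM and 1524753.5 in controls and overlapping ranges. An effect of ethanol and one of the total count can therefore not be fully told apart in that fit. Without ethanol replicate 3, 4, 5 or 6 the count was 0, without control replicate 1, 3 or 4 it was 1, and without ethanol replicate 2 it was 3. The number called among all genes moved too, from 1280 to 1186 with the covariate. That number was 953 to 1019 without 1 of ethanol replicates 3 to 6, 960 to 1046 without control replicate 1, 3 or 4, and 1516 without ethanol replicate 2. Ethanol replicates 1 and 2 had the largest totals of their group, 1688867 and 1610397 against 1218861 to 1358062 in the other wells, and the highest levels of Acly, Scd1, Scd2, Elovl1, Elovl6 and Fads2. Without replicate 1, the well with the high myelin sum, 2 of the 10 genes and 1563 of all genes were called. The median log2 fold change of the 10 genes was then -0.17.

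**Figure D2:**
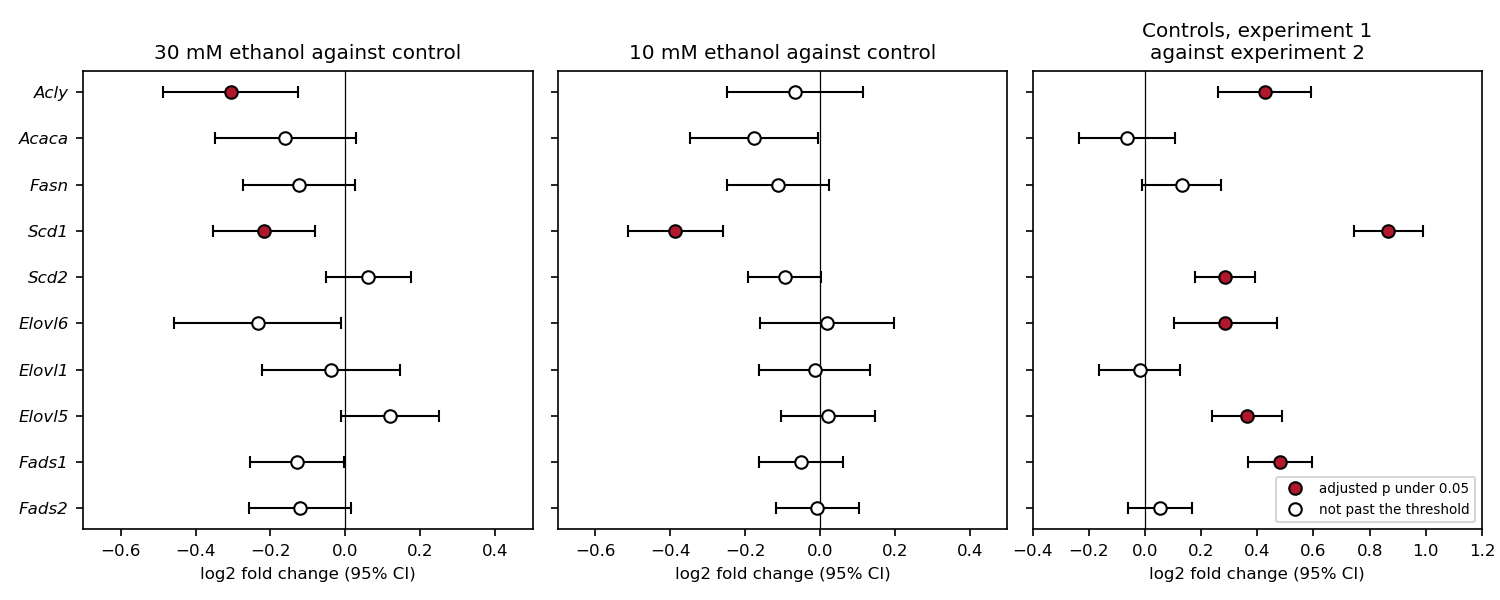
Log2 fold change with its 95% confidence interval for the 10 genes at 30 mM, at 10 mM and between the control groups (edgeR); filled points have an adjusted p under 0.05. Scd1 is filled in all 3 panels, at -0.22, -0.39 and 0.87.

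Among the genes of synthesis, Acly supplies cytosolic acetyl-CoA. Its wells at 30 mM ranged from 72.9 to 107 CPM with a median of 81.6, against 95.1 to 113 CPM with a median of 109.9 in controls. Replicates 1 and 2 at 30 mM (107 and 96.1 CPM) lay within the range of the controls, and the other 4 ethanol wells lay below it. Acly fell by 0.31 on the log2 scale, or by 19.1% (SE 0.0890, edgeR adjusted p = 0.0204). The fall was 0.38 without replicate 1 (edgeR adjusted p = 0.00237), and with the total count as a covariate it was 0.26 (edgeR adjusted p = 0.0561). The adjusted p lay between 0.0546 and 0.0768 when any of ethanol replicates 3 to 6 was left out. At 10 mM the wells overlapped, with 61.3 to 88.6 CPM (median 72.7) against 60.7 to 84.8 CPM (median 81.3), and the log2 fold change was -0.07 (edgeR, SE 0.0911, adjusted p = 0.870).

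Acaca makes malonyl-CoA, the committed step. It ranged from 62.4 to 89.3 CPM (median 70.6) at 30 mM and from 74.7 to 89.1 CPM (median 79.7) in controls. The log2 fold change was -0.16 (edgeR, SE 0.0935, adjusted p = 0.303) with all wells and -0.24 (edgeR adjusted p = 0.0900) without replicate 1, the one ethanol well above 71 CPM. At 10 mM Acaca ranged from 65.1 to 78.4 CPM (median 74.9) against 72.9 to 93.3 CPM (median 83.1), with a log2 fold change of -0.18 (SE 0.0858, unadjusted p = 0.0445 and adjusted p = 0.484 in edgeR). Fasn, which assembles palmitate, ranged from 193 to 241 CPM (median 213) at 30 mM and from 209.7 to 291 CPM (median 233) in controls, and the log2 fold change was -0.12 (edgeR, SE 0.0744, adjusted p = 0.320). At 10 mM it ranged from 179 to 225 CPM (median 194) against 166 to 254 CPM (median 217), with a log2 fold change of -0.11 (edgeR, SE 0.0689, adjusted p = 0.617). The wells of ethanol and control groups overlapped for Acaca and for Fasn at both doses.

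Promoters of 7 of the 10 genes were matched by symbol in a RefSeq table (GRCm38.p6, 250 bases before to 50 after the start of each gene); Scd1, Scd2 and Fads1 were not matched. The 130 bases just before the start are shown for Acly, which was called at 30 mM, and for Fasn, which acts downstream of it and was not. They are given 5′ to 3′ on the strand of the gene, the minus strand in each case, at chr11:100528001-100528130 for Acly and chr11:120824548-120824677 for Fasn. Capitals mark the GC box GGGCGG in Acly and the CCAAT box CCAAT in Fasn, read on both strands.
Acly: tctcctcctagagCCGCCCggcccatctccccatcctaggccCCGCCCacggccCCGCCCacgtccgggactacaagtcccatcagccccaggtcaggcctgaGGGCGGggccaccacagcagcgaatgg
Fasn: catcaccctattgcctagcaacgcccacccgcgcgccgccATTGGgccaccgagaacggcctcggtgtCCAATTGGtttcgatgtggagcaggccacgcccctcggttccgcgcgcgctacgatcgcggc
Acly held 4 GC boxes in this stretch, and Fasn 3 CCAAT matches, of which 1 on each strand overlapped. Of the 7 genes, 3 had a GC box in a 300-base window (35.7% of 32851 mouse promoters did) and 4 a CCAAT box (37.4%). The E-box CACGTG was found in 1 gene (7.15%) and the sterol regulatory element core TCACNCCAC in 0 (1.24%). Each gene was counted once, while the shares are per promoter. Elovl1 had 2 promoters, of which 1 held its CCAAT box. A match is a description of letters and not a binding site, and no match says only that the letters are not in this window.

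The desaturase Scd1, which makes oleate from stearate, had the clearest change. At 10 mM its wells ranged from 178 to 214 CPM with a median of 192, and those of the controls from 216 to 281 CPM with a median of 252. All 6 ethanol wells lay below all 6 control wells, as did 0.406% of all genes tested; the highest ethanol well, at 214 CPM, was close to the lowest control well, at 216 CPM. Scd1 fell by 0.39 on the log2 scale, or by 23.5% (SE 0.0636, edgeR adjusted p = 8.88e-05), and ranked 7th of 13538 genes by p. It was called in each of the 21 alternatives at this dose, with falls between 0.35 and 0.42. At 30 mM Scd1 ranged from 359.8 to 473 CPM (median 372) and in controls from 407 to 500.1 CPM (median 471), with overlapping wells. It fell by 0.22 on the log2 scale, or by 13.9% (SE 0.0675, edgeR adjusted p = 0.0324). That call was lost in 7 of 12 fits that left out 1 well (ethanol replicates 3, 4, 5 and 6; control replicates 1, 3 and 4), with adjusted p-values up to 0.117, and with the total count as a covariate (a fall of 0.16, edgeR adjusted p = 0.0962). Without replicate 1 at 30 mM the fall was 0.24 (edgeR adjusted p = 0.0102).

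Scd2, the most abundant of the 10 genes, was not called at either dose. Its wells ranged from 2572 to 3002 CPM (median 2718) at 30 mM and from 2449 to 3029 CPM (median 2598) in controls, with a log2 fold change of 0.06 (95% confidence interval -0.05 to 0.18, edgeR adjusted p = 0.542). At 10 mM they ranged from 1884 to 2181 CPM (median 1996) against 2007 to 2261 CPM (median 2147), with a log2 fold change of -0.09 (95% confidence interval -0.19 to 0.00, edgeR adjusted p = 0.508). Scd3 was low, at 7.44 CPM at 30 mM and 5.19 CPM in its controls. It was tested but not called at 30 mM, and was not tested at 10 mM. Scd4 passed the filter in no comparison and had 0 to 8 counts in a well.

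The ratio of Scd1 to Scd2 within a well does not depend on how libraries are scaled. The control wells of experiment 1 had a log2 ratio of -2.52 ± 0.133 (SD, n = 6) and the wells at 30 mM one of -2.81 ± 0.0996 (SD, n = 6), a difference of -0.29 (p = 0.00649 by an exact two-sided permutation test, or 0.0195 when adjusted over 6 ratio tests). The ethanol wells ranged from -2.90 to -2.67 and the controls from -2.70 to -2.37, so that they overlapped. The control wells of experiment 2 had -3.11 ± 0.152 (SD, n = 6) and the wells at 10 mM had -3.39 ± 0.0533 (SD, n = 6), a difference of -0.29 (p = 0.00216 by the same exact permutation test, the smallest that 924 splits can give, or 0.0130 when adjusted). Here the ethanol wells ranged from -3.49 to -3.35 and the controls from -3.31 to -2.88, without overlap. On the linear scale there were 14.3 Scd1 counts per 100 Scd2 counts at 30 mM and 17.4 in its controls, and 9.51 at 10 mM and 11.6 in its controls. Both differences kept an adjusted p under 0.05 with each well left out in turn and with a pseudocount of 0.5.

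**Figure D3:**
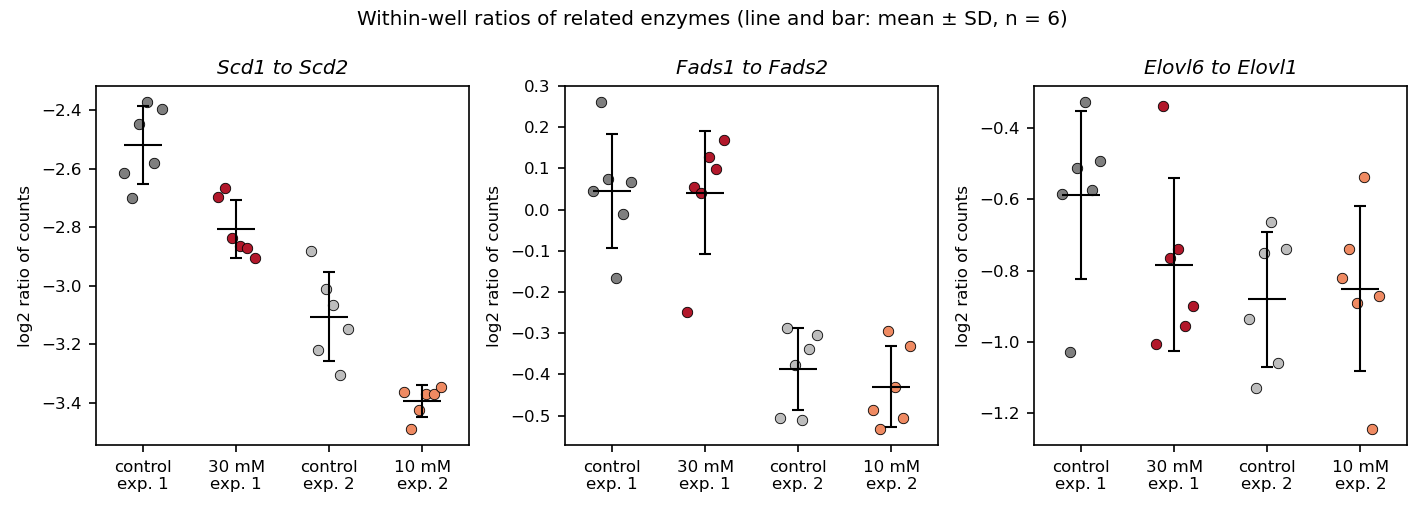
Log2 ratio of counts within each well for 3 pairs of related enzymes, by group; points are wells, the line and bar are the mean and SD of 6 wells. The ratio of Scd1 to Scd2 averages -2.81 at 30 mM and -2.52 in its controls, and -3.39 at 10 mM and -3.11 in its controls; the groups overlap at each dose for the other pairs.

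Of the elongases, Elovl6 lengthens palmitate to stearate, the substrate of Scd1. It ranged from 52.6 to 97.4 CPM (median 69.9) at 30 mM and from 65.6 to 102 CPM (median 89.9) in controls. Its log2 fold change of -0.23 missed the threshold (SE 0.110, unadjusted p = 0.0391 and adjusted p = 0.185 in edgeR). Replicates 1 and 2 at 30 mM were highest, at 88.1 and 97.4 CPM. The value was -0.34 without replicate 2 (edgeR adjusted p = 0.0418) and -0.10 with the total count as a covariate (edgeR adjusted p = 0.633). At 10 mM Elovl6 ranged from 63.8 to 81.2 CPM (median 72.4) and in controls from 60.3 to 83.1 CPM (median 70.7), and the log2 fold change was 0.02 (95% confidence interval -0.16 to 0.20, edgeR adjusted p = 0.970).

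Elovl1, which extends saturated and monounsaturated very long chains, ranged from 102 to 177 CPM (median 118) at 30 mM and from 115 to 137 CPM (median 133) in controls. Replicate 1 held the 177 CPM, and the other 5 ethanol wells lay at 123 CPM or below. The log2 fold change was -0.04 (edgeR, SE 0.0912, adjusted p = 0.845) with all wells and -0.17 (edgeR adjusted p = 0.164) without replicate 1. At 10 mM it was -0.01 (SE 0.0741, edgeR adjusted p = 0.973), with wells from 118 to 156 CPM against 117 to 143 CPM. Elovl5, which lengthens polyunsaturated chains, had the highest log2 fold change of the 10 genes at 30 mM, 0.12 (SE 0.0653, edgeR adjusted p = 0.269), with wells from 246 to 314 CPM (median 283) against 241 to 272 CPM (median 259). At 10 mM its value was 0.02 (SE 0.0630, edgeR adjusted p = 0.949). The log2 ratio of Elovl6 to Elovl1 differed by -0.20 between ethanol and control wells at 30 mM (exact permutation test, p = 0.188 and 0.377 after adjustment) and by 0.03 at 10 mM (exact permutation test, p = 0.814 and 0.961 after adjustment).

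The front-end desaturases Fads1 and Fads2 catalyse the delta-5 and delta-6 steps on polyunsaturated chains. Fads1 ranged from 425 to 519.9 CPM (median 438) at 30 mM and from 438 to 524 CPM (median 512) in controls, with a log2 fold change of -0.13 (SE 0.0623, unadjusted p = 0.0460 and adjusted p = 0.203 in edgeR). Fads2 ranged from 378 to 506 CPM (median 434) against 418 to 542 CPM (median 502), with a log2 fold change of -0.12 (edgeR, SE 0.0677, adjusted p = 0.279). Replicates 1 and 2 at 30 mM were the highest ethanol wells for Fads2, and with the total count as a covariate its value was -0.03 (edgeR adjusted p = 0.830). At 10 mM the log2 fold change was -0.05 for Fads1 (SE 0.0560, edgeR adjusted p = 0.831) and -0.01 for Fads2 (SE 0.0557, edgeR adjusted p = 0.983). The log2 ratio of Fads1 to Fads2 differed by -0.0045 between ethanol and control wells at 30 mM (exact permutation test, p = 0.961 before and after adjustment) and by -0.04 at 10 mM (exact permutation test, p = 0.450 and 0.675 after adjustment).

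The next comparison asked whether the changes at 30 mM and 10 mM differed from each other. Of the 10 genes 0 were called in the interaction over all 24 wells, where 3.28% of 14655 genes were, 2.4% lower and 0.88% higher. In edgeR 0 of the 10 also had an unadjusted p under 0.05 (17.2% of all genes). DESeq2 and limma voom called 0 of the 10, and 491 and 441 of all genes. The difference, 30 mM minus 10 mM, was 0.16 for Scd1 (95% confidence interval -0.04 to 0.35, edgeR adjusted p = 0.414). For Acly it was -0.25 (95% confidence interval -0.51 to 0.01, unadjusted p = 0.0615 and adjusted p = 0.319 in edgeR), and for Elovl6 it was -0.26 (95% confidence interval -0.56 to 0.03, edgeR adjusted p = 0.356). The call of Acly at one dose only is therefore no evidence of a difference between the doses.

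The controls of the experiments were compared next, without ethanol. Of the 10 genes 6 were higher in experiment 1 and 0 lower, where 43.6% of 13479 genes were called, 21.3% higher and 22.3% lower. Scd1 differed most, at 463 ± 36.4 CPM (SD, n = 6) against 249 ± 22.3 CPM (SD, n = 6), a log2 difference of 0.87 (SE 0.0612, edgeR adjusted p = 8.23e-22). Fads1 (0.48), Acly (0.43), Elovl5 (0.36), Elovl6 (0.29) and Scd2 (0.29) followed, and all but Elovl6 had wells that did not overlap, as 10% of all genes had in this direction. Fasn (0.13, edgeR adjusted p = 0.126), Fads2 (0.05, edgeR adjusted p = 0.467), Elovl1 (-0.02, edgeR adjusted p = 0.855) and Acaca (-0.06, edgeR adjusted p = 0.575) were not called. With the total count as a covariate 5 genes were called (4284 of all genes) and Elovl6 was not (0.20, edgeR adjusted p = 0.157). Fasn was called as a 7th gene without the low-count filter (edgeR adjusted p = 0.0461), without replicate 6 of experiment 1 (edgeR adjusted p = 0.0416) and without replicate 1 of experiment 2 (edgeR adjusted p = 0.0286). The microglial marker sum given above also differed between these groups, without overlap, and its part in the differences was not tested.

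The genes around the pathway were read from lists of related genes. In the list for supply of substrate and cofactors, 4 of 12 tested genes fell at 30 mM and 1 rose, where 6.65% of all genes were called lower and 3.02% higher. G6pdx (-0.42, edgeR adjusted p = 8.76e-04) and Pgd (-0.38, edgeR adjusted p = 0.00192), enzymes of the pentose phosphate pathway, and malic enzyme Me1 (-0.34, edgeR adjusted p = 0.00513) are sources of NADPH, which fatty acid synthesis consumes. The fourth, Mecr (-0.46, edgeR adjusted p = 0.0156), belongs to mitochondrial fatty acid synthesis. Thrsp, a lipogenic protein named for its response to thyroid hormone, rose by 0.45 (edgeR adjusted p = 0.0254), from 34.7 ± 8.44 to 47.4 ± 7.26 CPM (SD, n = 6). Its call was lost in 4 of 21 alternatives, with DESeq2 (adjusted p = 0.0886) and without ethanol replicate 5 or control replicate 2 or 4 (edgeR adjusted p up to 0.0873). Acss2, the other source of cytosolic acetyl-CoA, had a log2 fold change of 0.04 (edgeR adjusted p = 0.885). At 10 mM 0 of 11 genes of this list were called by edgeR (0.657% of all genes), DESeq2 or limma voom. In edgeR 2 had an unadjusted p under 0.05 (10.1% of all genes), in opposite directions. These were Pcx, with a log2 fold change of 0.22 (edgeR adjusted p = 0.144), and Me1, with -0.23 (edgeR adjusted p = 0.257).

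Among other desaturases and the cytochrome b5 and reductase genes listed with them, 3 of 7 tested genes fell at 30 mM (6.65% of all genes) and 0 rose. Cytochrome b5 type B, Cyb5b (-0.26, edgeR adjusted p = 0.00739), had wells that did not overlap with the controls. Cytochrome b5 reductase, Cyb5r3 (-0.25, edgeR adjusted p = 0.0135), and Fads3 (-0.33, edgeR adjusted p = 0.0218) fell with overlap. Cyb5a, the other cytochrome b5 of the list, was called at neither dose (0.12 at 10 mM, edgeR adjusted p = 0.550). The call of Fads3 was lost in 5 of 21 alternatives, with the total count as a covariate and without ethanol replicate 3 or 4 or control replicate 2 or 4 (edgeR adjusted p up to 0.0663). That of Cyb5r3 was lost without ethanol replicate 3 (edgeR adjusted p = 0.0654). At 10 mM 0 of 6 were called by edgeR (0.657% of all genes), DESeq2 or limma voom, with 1 at an unadjusted p under 0.05 in edgeR (10.1%). The value of Cyb5r3 at this dose was -0.14 (edgeR adjusted p = 0.376). In the elongation cycle and other elongases, edgeR called 0 of 9 genes at 30 mM (9.67% of all genes) and 0 of 8 at 10 mM (0.657%). At an unadjusted p under 0.05 the counts were 2 (23.5% of all genes) and 0 (10.1%). DESeq2 called 1 at 30 mM (947 of all genes), the last enzyme of the cycle Tecr (-0.17 and adjusted p = 0.0688 in edgeR). Limma voom called 0 at both doses, where it called 1175 and 71 of all genes. Elovl7 had a value of 0.14 at 30 mM (edgeR adjusted p = 0.502) and 0.11 at 10 mM (edgeR adjusted p = 0.834). For activation and binding of fatty acids, edgeR, DESeq2 and limma voom each called 0 of the genes they tested at either dose. In edgeR 1 of 11 at 30 mM (23.5% of all genes) and 0 of 11 at 10 mM (10.1%) had an unadjusted p under 0.05.

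Of 18 tested regulators of lipogenesis, Insig1, which retains the SREBP precursors in the endoplasmic reticulum and is itself a target of SREBP, fell at both doses. It ranged from 72.1 to 102 CPM (median 89.5) at 30 mM and from 109.7 to 123 CPM (median 121) in controls, without overlap, and fell by 0.42 (SE 0.0851, edgeR adjusted p = 6.85e-04). At 10 mM it ranged from 47.6 to 75.9 CPM (median 60.2) against 61.8 to 87.1 CPM (median 82.7), with overlap, and fell by 0.38 (SE 0.0978, edgeR adjusted p = 0.0383). The call at 10 mM was lost in 12 of 21 alternatives, DESeq2 (adjusted p = 0.102), limma voom (adjusted p = 0.0518) and 7 of 12 fits without 1 well among them (ethanol replicates 4, 5 and 6; control replicates 1, 2, 4 and 6; edgeR adjusted p up to 0.152). The thyroid hormone receptor Thra rose at 30 mM (0.27, edgeR adjusted p = 0.00958), a call lost without the low-count filter (edgeR adjusted p = 0.0789). At 30 mM 1 of 18 regulators fell (6.65% of all genes), 1 rose (3.02%) and 16 were not called. At 10 mM 1 of 18 fell (0.266% of all genes) and 0 rose (0.391%). Srebf1, which encodes the SREBP most tied to fatty acid genes, had a log2 fold change of -0.12 at 30 mM (edgeR adjusted p = 0.409) and 0.02 at 10 mM (edgeR adjusted p = 0.960). For Srebf2, which encodes the SREBP most tied to cholesterol genes, the values were -0.07 (edgeR adjusted p = 0.611) and 0.00 (edgeR adjusted p = 0.999). Mlxipl had 0 to 8 counts in a well and was not tested.

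Of 15 tested genes of fatty acid oxidation, the opposite route, 2 were higher at 30 mM (3.02% of all genes), 2 were lower (6.65%) and 11 were not called, with a median log2 fold change of 0.01 against 0.02 for all genes. The carnitine palmitoyltransferase Cpt1a fell by 0.40 (edgeR adjusted p = 0.00736), whereas its brain form Cpt1c rose by 0.31 (edgeR adjusted p = 0.00495) with wells that did not overlap, a call that was lost without the low-count filter (edgeR adjusted p = 0.0543). Of the last steps of the spiral, Acaa2 fell by 0.37 (edgeR adjusted p = 0.00734) and Hadhb rose by 0.33 (edgeR adjusted p = 0.0177). The call of Hadhb was lost without the low-count filter (edgeR adjusted p = 0.0639), with DESeq2 (adjusted p = 0.0682) and without control replicate 4 (edgeR adjusted p = 0.0807). At 10 mM 0 of 16 were called by edgeR (0.657% of all genes), DESeq2 or limma voom, with 1 at an unadjusted p under 0.05 in edgeR (10.1%). Among genes of cholesterol synthesis and uptake, 6 of 17 fell at 30 mM (6.65% of all genes) and 0 rose, and Hmgcs1, an early enzyme of the route, was not called (-0.16, edgeR adjusted p = 0.183). The count of genes that fell was 9 without replicate 1 at 30 mM and 3 with the total count as a covariate. These fits called 1563 and 1186 of all genes in either direction, against 1280 in the main fit. At 10 mM 0 of 17 were called by edgeR (0.657% of all genes), DESeq2 or limma voom, and 4 had an unadjusted p under 0.05 in edgeR (10.1%). The log2 fold change was below 0 for 16 of 17 (50.7% of all genes), with a median of -0.15 against -0.0023 for all genes.

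**Figure D4:**
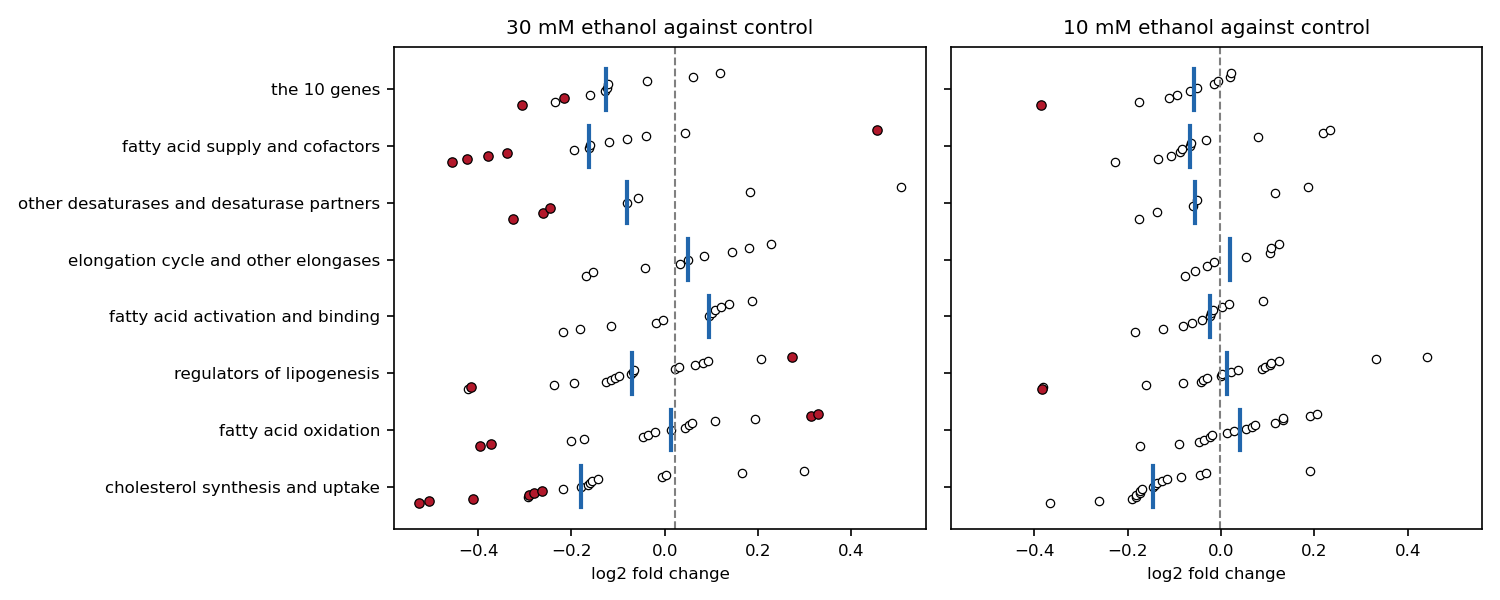
Log2 fold change of each tested gene at 30 mM and 10 mM, by list; filled points have an adjusted p under 0.05 (edgeR), the blue bar is the median of the list and the dashed line the median of all genes tested. At 30 mM the filled points number 2 among the 10 genes, 5 in supply and cofactors and 6 in cholesterol synthesis and uptake, and at 10 mM only Scd1 and Insig1 are filled.

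Around their group means the 10 genes varied together only in part. Over the 24 wells, Pearson's r of log2 CPM deviations across the 45 pairs of genes had a median of 0.22 and ranged from -0.21 (Acaca with Elovl5) to 0.73 (Elovl6 with Fads2). Scd1 with Elovl6 had 0.70, and Scd2 with Elovl5 0.66. Without replicate 1 at 30 mM these 3 highest values were 0.69, 0.67 and 0.72. Acaca with Elovl5 was then at -0.06, and the lowest value was -0.21 (Fasn with Acly). Among all genes with a mean log2 CPM of at least 3, the pattern most like that of Scd1 was that of Hnrnpm (0.82), then Agap3 (0.80) and Gpatch4 (0.79). For Acly it was Aprt (0.84), then Olig2 (0.83), which encodes a transcription factor of the oligodendrocyte lineage, and Mipep (0.76). The nearest gene was Ddx17 for Elovl6 (0.84) and Aplp1 for Elovl1 (0.85), and without replicate 1 at 30 mM it was Slc35f1 for Elovl6 (0.87) and Napa for Elovl1 (0.80). These are descriptions of wells that share library, depth and culture, and the leading gene was picked from all genes that met the minimum.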

How the data were processed

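The authors deposited 1 table of raw counts per gene for 24 wells, whole numbers made from 3′ tag sequencing with single-end reads of 100 bases, per the labels' protocols. Cutadapt 1.18, STAR and the genome build GRCm39 were used, per the submitters' processing notes. The counter, the annotation release, the use of strand and the handling of PCR duplicates are not given in the sources used here, so overlapping genes may share reads and floors cover counting error only. Symbols were matched for 52083 of 55359 identifiers.

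Counts were tested with edgeR 4.0.16 (R 4.3.3; quasi-likelihood, TMM, filterByExpr with a minimum count of 10), with Benjamini-Hochberg adjustment over all genes tested. Each dose was compared with the controls of the same experiment, and the difference between the doses over all 24 wells. CPM used TMM library sizes over 24 wells. SE is that of the log2 fold change. Ratios within wells were compared by exact permutation tests. The code was tested on simulated data. Alternatives covered normalization, filter, DESeq2 1.42.0, limma voom (limma 3.58.1), a joint fit, a replicate block, a total-count covariate and leaving out each well.

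The 10 genes, the lists and the rule for named genes were chosen with earlier results of these data known. The rule named genes called at either dose or for the difference, those with the smallest p in each list and a fixed set of regulators. Replicate numbers come from the labels. Sequences were read from RefSeq (GRCm38.p6) and GENCODE mouse transcripts, not from the build of the counts, and were used for letters only.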

Additional observations from a re-analysis of the deposited data

Results flagged for a closer look

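Among 116 sets of 6 wells examined, 11 had 1 well far from the others, where chance gives about 5.8. At 30 mM, replicate 1 stood out for Acaca (89.3 CPM, others 62.4 to 70.9), for Elovl1 (177 CPM, others 102 to 123) and for the log2 ratio of Fads1 to Fads2 (-0.25, others 0.04 to 0.17). In the controls of experiment 1, replicate 1 stood out for Scd2 (3029 CPM, others 2449 to 2642) and for the share of all counts taken by the 10 genes (0.538%, others 0.474% to 0.483%). Replicate 2 of those controls was low for Acly (95.1 CPM, others 106 to 113) and for the log2 ratio of Elovl6 to Elovl1 (-1.03, others -0.58 to -0.33). In the controls of experiment 2, replicate 2 was low for Acly (60.7 CPM, others 79.2 to 84.8) and high for Cpt1c (159.96 CPM, others 128 to 139), and replicate 3 was low for Cpt1a (56.5 CPM, others 67.7 to 72.9). At 10 mM, replicate 6 was high for Mecr (41.7 CPM, others 22.5 to 28.9).

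By the interaction test Mecr was called in the supply list (1 of 12 tested genes) and Cpt1a in oxidation (1 of 16). The other fatty acid lists held 0 called genes, and 3.28% of all genes were called. The difference of log2 fold changes, 30 mM minus 10 mM, was -0.70 for Mecr (edgeR adjusted p = 0.0283) and -0.48 for Cpt1a (edgeR adjusted p = 0.0318). For Mecr at 10 mM, where replicate 6 was high, the log2 fold change ranged from 0.09 to 0.30 with 1 well left out. With the total count as a covariate neither list held a called gene for this difference.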

How the results depend on the processing

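The call of Scd1 at 10 mM, the differences in the ratio of Scd1 to Scd2 at both doses and the count of 0 for the difference between the doses held under each alternative run for them. For the ratios these were only a pseudocount and leaving out each well, and the total count was not used as a covariate. Replicates 1 and 2 at 30 mM, with the largest totals of their group, had its highest ratios of Scd1 to Scd2 (log2 -2.70 and -2.67). The number of the 10 genes called at 30 mM was 0 with the log2 total count as a covariate and 0 to 3 with 1 well left out. Of all genes, 1186 were called at 30 mM with the covariate and 953 to 1563 with 1 well left out, against 1280. Genes called at 10 mM numbered 59 with DESeq2, 21 in the fit of all 24 wells and 37 to 95 with 1 well left out, against 89. Genes called for the difference between the doses numbered 307 with the covariate and 329 to 759 with 1 well left out, against 481. The cause was not tested. Correlations of same-numbered wells, taken around the group means, ranged from -0.17 to 0.23 in experiment 1 and from -0.04 to 0.04 in experiment 2. The same-numbered control was the best match for 1 ethanol well in experiment 1 (replicate 6, 0.23) and for 0 in experiment 2. Replicate numbers were therefore not used as pairs in the main fits, though such correlations cannot exclude a pairing. With the replicate block, 2, 1, 0 and 6 of the 10 genes and 1208, 68, 461 and 5860 of all genes were called, in the order 30 mM, 10 mM, difference, controls.

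Signs turned only for values near 0 that were not called. With the covariate these were Elovl1 at 30 mM (0.054), Fads2 at 10 mM (0.017), Fasn (0.035) and Elovl1 (0.047) for the difference, and Fads2 between the controls (-0.035). Without the low-count filter they were Elovl1 (0.0090), Fads2 (0.017) and Acaa2 (7.26e-04) at 10 mM, Acaca for the difference (-0.052) and Elovl1 between the controls (0.032). With a minimum count of 30 they were Fasn (0.025) and Elovl1 (0.012) for the difference and Fads2 between the controls (-0.0068). DESeq2 turned Fads2 at 10 mM (0.0045), Acaca for the difference (-0.029) and Elovl1 between the controls (0.012). Library sizes alone turned Fasn for the difference (1.63e-04) and Fads2 between the controls (-0.0029). Acaca for the difference was -0.0082 with RLE normalization, -0.0067 with limma voom and -0.0096 with the replicate block, and Fads2 at 10 mM was 0.0036 in the fit of all wells. With 1 well left out, values at 10 mM ranged from -0.060 to 0.014 for Acaa2, -0.071 to 0.019 for Elovl1, -0.027 to 0.069 for Elovl6, -0.048 to 0.018 for Fads2, -0.098 to 0.016 for Hadhb and -0.033 to 0.108 for the log2 ratio of Elovl6 to Elovl1. At 30 mM they ranged from -0.170 to 0.015 for Elovl1 and -0.047 to 0.053 for the log2 ratio of Fads1 to Fads2. For the difference they ranged from -0.098 to 0.030 for Acaca, -0.189 to 0.0092 for Elovl1 and -0.082 to 0.023 for Fasn, and between the controls from -0.038 to 0.016 for Elovl1.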

Other observations

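The 10 genes together took these shares of all counts: 0.488% ± 0.0243 (SD, n = 6) in the controls of experiment 1 against 0.481% ± 0.0192 (SD, n = 6) with 30 mM, and 0.407% ± 0.0107 (SD, n = 6) in those of experiment 2 against 0.382% ± 0.00710 (SD, n = 6) with 10 mM. These shares were not tested. At 10 mM the wells ranged from 0.368% to 0.388% and those of the controls from 0.395% to 0.426%, without overlap, and Scd2 made up 53.6% and 53.9% of them.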
